A study of Mus musculus with 34 samples.

Results

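The 10 lens crystallin genes Cryaa, Cryab, Cryba1, Cryba2, Cryba4, Crybb1, Crybb2, Crybb3, Crygs and Crygd were followed in RNA of the mouse cornea, out of 19938 genes with a probe set of their own on the array. Each was taken as the probe set annotated with that 1 symbol alone. Every one of the 10 genes had a single such probe set, and all 10 passed the filter on dim probe sets.

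The study profiled corneas of wild-type CB6 mice with Affymetrix gene arrays, from before birth into old age. Whole corneas, freed of the tissue around them, were measured on 3 arrays each at embryonic days E14.5, E15.5 and E17.5, postnatal days P3, P7, P14 and P28 and 2 months, and on 2 arrays each at 6 months, 1 year, 18 months and 2 years. A further array held stroma of P7, cut by laser from sections of whole eyes, and another held epithelium of P28, lifted off with dispase II. No array carried a mutation or a treatment. Whether each array of an age had its own animals is not given in the labels, and p-values here cover only the spread between arrays, which may be technical.

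Crystallins are the proteins that fill the fibre cells of the lens and give it its transparency and refractive power. The alpha crystallins belong to the small heat shock proteins and act as chaperones, and Cryab is also expressed in many tissues outside the lens, muscle among them. The beta and gamma crystallins share a common fold, are made mainly in lens fibres, and appear in a set order as the lens grows. The cornea lies in front of the lens, and its epithelium and the lens both arise from the surface ectoderm of the head.

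The sequences just upstream of 9 of the 10 genes matched RefSeq entries of build GRCm38.p6, and none was matched for Cryab. A 6-base sequence read by Maf proteins, which switch on crystallin genes in lens fibres, was searched on both strands as TGCTGA in the 250 bases before each start. It occurred in 7 of these 9 windows, Cryaa, Cryba1, Cryba2, Cryba4, Crybb1, Crybb3 and Crygs, against 16.1% of the 32851 promoters in the table. Crybb2 and Crygd had no match in their windows. The longer TGCTGAC, which contains it, occurred in 4 of the 9 windows and in 3.81% of all promoters. Also searched were TATAAA, found in 3 of the 9 windows and 12.4% of all promoters, AACAAT, found in 3 and 9.42%, and GAANNTTC, the core of a heat shock element, found in 0 and 6.69%. A match is a run of letters and no evidence that a factor binds there. Shown are the windows of Cryaa, which was high on all of the arrays singled out below, of Crybb1 and Crybb2, whose high arrays differed, and of Crygs, with TGCTGA or its reverse complement in capitals.
Cryaa, chr17:31677681-31677930, plus strand: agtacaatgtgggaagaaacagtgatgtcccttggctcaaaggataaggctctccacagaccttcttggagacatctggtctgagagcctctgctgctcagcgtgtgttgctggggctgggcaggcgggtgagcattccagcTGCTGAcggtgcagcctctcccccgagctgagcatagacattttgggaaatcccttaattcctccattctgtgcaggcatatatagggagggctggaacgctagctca
Crybb1, chr5:112255570-112255819, plus strand: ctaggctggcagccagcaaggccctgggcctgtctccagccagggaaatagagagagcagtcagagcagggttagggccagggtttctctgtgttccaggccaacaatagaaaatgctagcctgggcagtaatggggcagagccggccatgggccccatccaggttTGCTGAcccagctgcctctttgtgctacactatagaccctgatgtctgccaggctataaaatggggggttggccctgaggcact
Crybb2, chr5:113070118-113070367, minus strand: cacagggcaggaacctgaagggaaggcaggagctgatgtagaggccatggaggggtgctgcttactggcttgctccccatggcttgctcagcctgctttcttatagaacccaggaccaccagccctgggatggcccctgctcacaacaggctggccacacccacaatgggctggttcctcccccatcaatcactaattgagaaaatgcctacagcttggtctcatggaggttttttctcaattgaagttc
Crygs, chr16:22811411-22811660, minus strand: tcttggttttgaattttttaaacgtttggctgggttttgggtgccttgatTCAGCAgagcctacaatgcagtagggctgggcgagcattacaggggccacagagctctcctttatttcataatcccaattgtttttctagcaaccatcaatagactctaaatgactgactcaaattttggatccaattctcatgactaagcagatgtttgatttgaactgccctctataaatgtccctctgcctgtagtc
The Crybb1 window held TGCTGA 78 bases before the start, and the Crybb2 window held none. On chromosome 5 the starts of Crybb1 and its divergent neighbour Cryba4 lay 3302 bases apart.

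All values below are log2(intensity + 16), where the intensity is the linear probe set value deposited by the authors. Intensities depend on the probes, so each gene was compared only with itself on other arrays. The median intensity of a whole-cornea array was 188.2 to 240.6, and precision is limited by having 2 or 3 arrays per age. The 3 E14.5 arrays stood apart from the rest in some corneal genes. Krt12, the keratin of the differentiated corneal epithelium, read 6.16, 6.30 and 6.00 on E14.5 replicates 1, 2 and 3, against 10.79 to 13.95 on the other whole-cornea arrays. Keratocan (Kera), a proteoglycan of the corneal stroma, read 10.05, 7.96 and 6.42 on the same 3 arrays. Krt12 was therefore near its floor at E14.5, and Kera was low on replicates 2 and 3, against 9.15 to 13.15 on the later arrays. Other genes of these layers were less far down. Krt5, a keratin of the epithelium, read 9.40, 11.21 and 8.77 at E14.5, against 12.58 to 13.68 later. Lum, a proteoglycan of the stroma, read 11.27, 10.41 and 8.02, within its later range of 7.41 to 13.01.

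The crystallins were not read at an even level from one array to the next. The median of the 10 genes on an array lay 2.48 to 4.45 above its overall median of 8.62 on 6 arrays, and at most 0.58 above it on the other 26. These were replicates 2 and 3 of E14.5 (medians of 13.00 and 13.07), replicate 2 of P14 (12.09), replicate 2 of P28 (11.11), replicate 1 of 2 months (12.36) and replicate 2 of 6 months (12.04). In 5 of the 12 ages, then, at least 1 array was high in crystallins and at least 1 was not. This division was made from the crystallin values themselves, so the values on the 6 arrays are given as a description with no test. In bulk tissue, more cells of a type and more RNA per cell cannot be told apart.

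**Figure D1:**
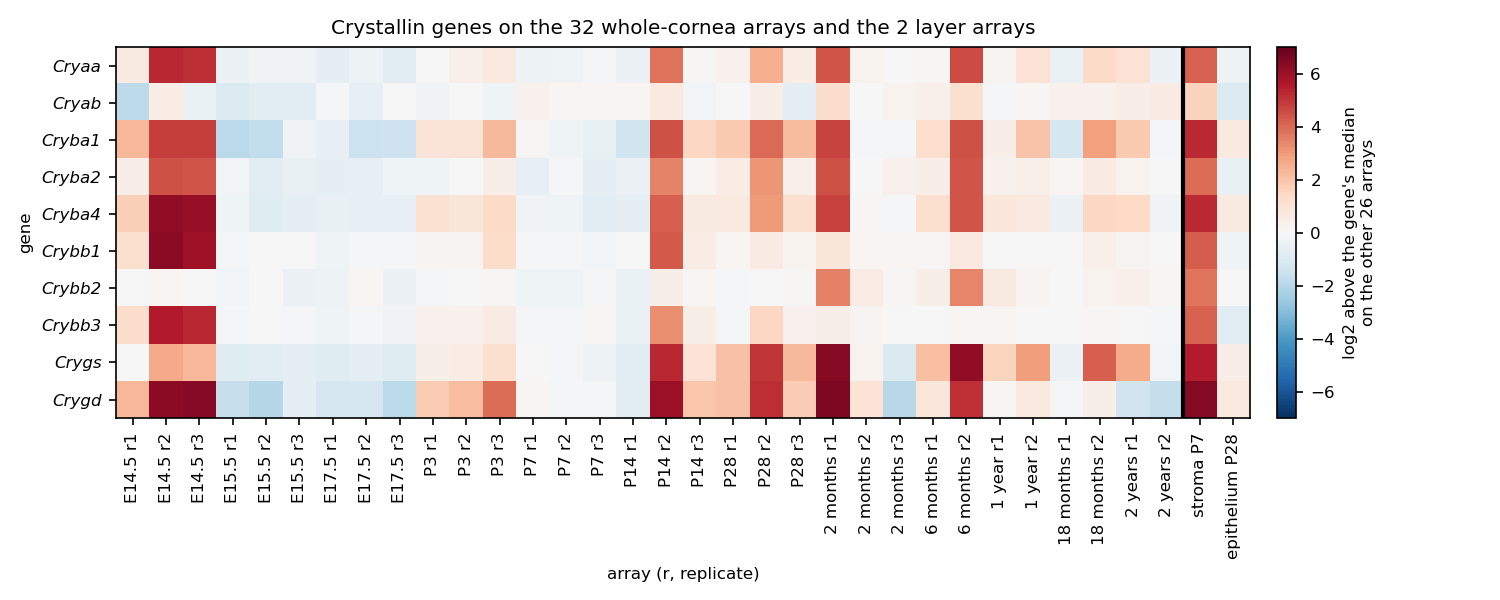
Each of the 10 crystallins (rows) on the 32 whole-cornea arrays in order of age and, right of the line, on the stroma and epithelium arrays. Colour gives log2 units above or below the gene's own median on the 26 arrays not high in crystallins. The 6 high arrays and the stroma array stand out in red in most rows. Cryab lies at most 1.25 above its median on the 6 high arrays and 1.60 above it on the stroma array.

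Genes of the lens other than crystallins stood higher on the same 6 arrays, by less. Of 12 listed genes 10 were measured, and their median lay 1.14, 0.77, 0.37, 0.38, 0.63 and 0.75 above its overall median on the 6 arrays, in the order of age and replicate above, against at most 0.31 on the other 26. Their summed intensity was 2402 to 7016 on the 6 arrays and 1410 to 2117 on the other 26. Lim2, a membrane protein of lens fibres, read 11.12 and 10.90 on E14.5 replicates 2 and 3 and 7.45 to 7.93 on the other 4 of the 6 arrays, against 6.66 to 7.45 on the other 26. Grifin, a galectin-related protein of the lens, read 8.55 to 10.28 on the 6 arrays, against 7.71 to 8.58 on the other 26. Bfsp1, a filament protein of lens fibres, did not separate them, with 8.54 to 9.04 on the 6 arrays and 8.05 to 9.14 on the other 26. The part of lens tissue in the crystallin values was not tested.

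Retina genes did not single out the same arrays. Their median over 10 measured genes lay highest on 6 months replicate 1, 3.35 above its overall median, where the crystallin median lay 0.03 above its own. It also lay 1.44 above on 2 months replicate 2, where the crystallin median lay 0.39 below. Of the 6 arrays high in crystallins it was raised by 1.62 on P14 replicate 2, 0.44 on P28 replicate 2, 1.48 on 2 months replicate 1 and 1.16 on 6 months replicate 2. It lay at -0.20 and -0.12 on E14.5 replicates 2 and 3. Within an age the highest retina median lay on a high array at E14.5, P14, P28 and 2 months, and not at 6 months. At E14.5 it was close to the -0.16 of replicate 1, and at 2 months to the 1.44 of replicate 2. Krt12 deviations from the age mean followed those of no crystallin, with r of -0.09 to 0.02 over 32 arrays. Deviations of Kera (keratocan, a proteoglycan of the corneal stroma) had r of -0.56 with those of Crybb1 and Crybb3, -0.40 with Cryba4, -0.36 with Cryaa and -0.31 to 0.08 with the other 6.

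**Figure D2:**
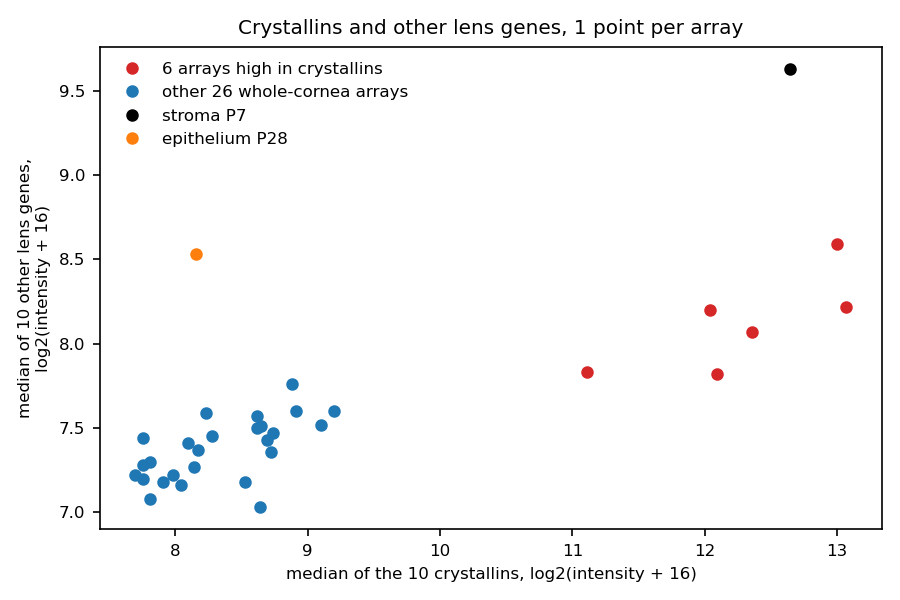
Median of the 10 crystallins (x axis) against the median of the 10 measured lens genes other than crystallins (y axis), both as log2(intensity + 16), with 1 point per array. The 6 arrays high in crystallins lie at 11.11 to 13.07 on the x axis, apart from the other 26, and all have a lens gene median above that of the other 26; the stroma array is highest on the y axis at 9.63.

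Of the alpha crystallins, Cryaa separated the 6 arrays and Cryab did not. Cryaa, the alpha crystallin largely restricted to the lens, read 13.89 and 13.77 on E14.5 replicates 2 and 3, 12.41 on P14 replicate 2, 11.14 on P28 replicate 2, 13.00 on 2 months replicate 1 and 13.17 on 6 months replicate 2. On the other 26 arrays Cryaa lay between 7.87 and 9.97, with a median of 8.62. The high and the other arrays did not overlap, and the intensity on a high array was 5.93 to 39.9 times the median of the others.

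Cryab, the widely expressed small heat shock protein, was read on every array above that array's median. This did not set it apart: Crybb2 and Crybb3 also lay above the median on all 32 whole-cornea arrays, and Cryaa and Crybb1 on 30. Cryab read 9.08, 11.43 and 10.46 at E14.5, 9.95, 10.20 and 10.19 at E15.5, and 10.87, 10.34 and 10.88 at E17.5. It read 10.71, 10.91 and 10.63 at P3, 11.22, 11.07 and 11.07 at P7, 11.04, 11.61 and 10.76 at P14, and 10.96, 11.37 and 10.26 at P28. In adults it read 12.18, 10.95 and 11.16 at 2 months, 11.31 and 12.07 at 6 months, 10.86 and 11.05 at 1 year, 11.22 and 11.23 at 18 months, and 11.37 and 11.49 at 2 years. The E14.5 arrays spread most, the arrays of P7 and later lay mostly between 10.76 and 11.61, and 2 months replicate 1 and 6 months replicate 2 were highest. On the 6 arrays high in crystallins Cryab read 10.46 to 12.18, which overlapped the 9.08 to 11.49 of the other 26, and its intensity there was 0.715 to 2.38 times the median of 1941 on the others. Within an age, though, the highest Cryab value lay on a high array at all 5 ages that held one. Deviations of Cryab from the age means had r of 0.80 with those of Cryaa and 0.88 with those of Grifin over 32 arrays, as a description.

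Among the beta crystallins, which form dimers and larger complexes in the lens, the acidic and basic members differed. Cryba1, which gives rise to both the A1 and A3 proteins, read 12.14 to 13.02 on the 6 high arrays against 6.29 to 11.05 on the other 26, with a median of 8.16. Cryba2 read 11.07 to 12.44 on the high arrays against 7.23 to 8.54. Cryba4 read 10.48 to 13.69 on the high arrays against 6.62 to 9.13. These 3 acidic members were thus high both at E14.5 and at 6 months, though not all at an equal level. Cryba2 read 12.41 and 12.37 on E14.5 replicates 2 and 3 and 12.44 and 12.36 on 2 months replicate 1 and 6 months replicate 2. Cryba4 was lower on the adult arrays, with 13.69 and 13.56 at E14.5 and 12.28 and 11.86 on those 2 arrays.

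The basic members followed 2 patterns across the same arrays. Crybb1, a basic beta crystallin of lens fibres, read 14.54 and 14.12 on E14.5 replicates 2 and 3 and 12.51 on P14 replicate 2. On P28 replicate 2, 2 months replicate 1 and 6 months replicate 2 it read 8.80, 9.06 and 8.88, within the 7.93 to 9.50 of the 26 other arrays. Crybb1 was therefore far above its other arrays up to P14 and not at P28 or later, although Cryaa was high on all 6. The 14 arrays of P28 and later differed from the 18 earlier ones in 8 unnamed probe sets. Array set and age therefore cannot be told apart across this boundary.

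Crybb3 had the same order, with 14.03, 13.75 and 11.77 on the E14.5 and P14 arrays, 9.96 on P28 replicate 2, and 8.90 and 8.63 on 2 months replicate 1 and 6 months replicate 2, against 8.04 to 9.73 on the other 26. Crybb2, the basic beta crystallin known as the main one of the adult lens, had the reverse order. It read 8.72 and 8.55 on E14.5 replicates 2 and 3, 8.99 on P14 replicate 2 and 8.59 on P28 replicate 2. On 2 months replicate 1 and 6 months replicate 2 it read 12.13 and 12.01, against 8.13 to 9.23 on the other 26 arrays. The adult high arrays thus lay 3.53 and 3.41 above the median of the other arrays for Crybb2, and 0.42 and 0.14 above it for Crybb3. Each age of this contrast had 1 or 2 such arrays, so no test was made.

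**Figure D3:**
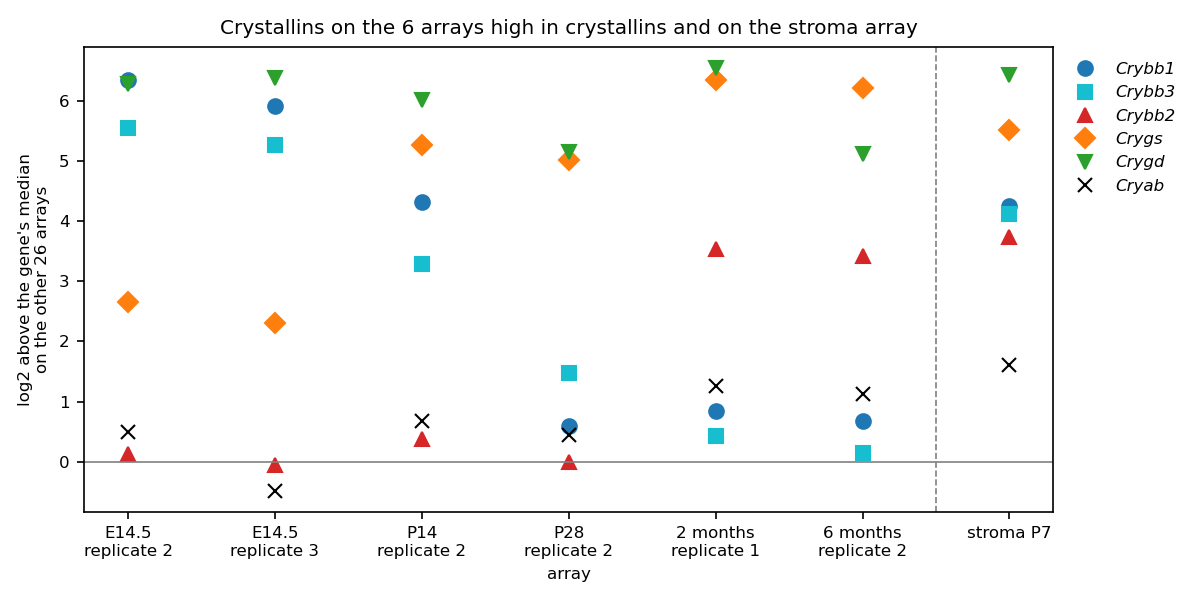
Log2 units by which Crybb1, Crybb3, Crybb2, Crygs, Crygd and Cryab lay above their own median on the other 26 arrays (y axis), on the 6 arrays high in crystallins in order of age and on the stroma array (x axis). Crybb1 and Crybb3 are high at E14.5 and P14, Crybb2 at 2 months and 6 months, Crygd on all of them, and on the stroma array Crybb1, Crybb3 and Crybb2 lie at 4.25, 4.12 and 3.74.

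Crygs, a crystallin of the beta and gamma family that continues to be made in the adult lens, also differed by age on the high arrays. It read 10.41 and 10.07 on E14.5 replicates 2 and 3, 13.02 on P14 replicate 2, 12.78 on P28 replicate 2, 14.10 on 2 months replicate 1 and 13.97 on 6 months replicate 2. This put it 2.31 to 2.66 above the median of the other 26 arrays at E14.5 and 5.02 to 6.34 above it from P14 on. The other arrays were themselves uneven, from 6.72 to 11.96, and the highest of them was 18 months replicate 2, with 7.34 on replicate 1 of that age. At 1 year Crygs read 9.32 and 10.70, and at 2 years 10.34 and 7.55.

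Crygd, a gamma crystallin of lens fibres, was the member whose values ranged most widely. It read 11.86 to 13.29 on the 6 high arrays, against 4.76 to 10.68 on the other 26. Crygd read 8.51, 8.92 and 10.68 at P3, against 5.56, 5.56 and 4.89 at E17.5 and 6.86, 6.67 and 6.65 at P7. The P3 values did not overlap those of either neighbouring age, but 9.07 on E14.5 replicate 1, 8.68 on P14 replicate 3 and 8.78 and 8.52 on P28 replicates 1 and 3 lay above the lowest of them. Crygd was not alone in this. Cryaa, Cryba1, Cryba4, Crybb1, Crybb3 and Crygs also read higher on every P3 array than on any array of E17.5 or P7. Cryba4, for one, read 8.31 to 8.80 at P3, 6.90 to 6.97 at E17.5 and 6.71 to 7.25 at P7. Cryab, Cryba2 and Crybb2 did not separate P3 in this way. Crx and Sag, genes of photoreceptors, also differed at P3, and Gnat1, another such gene, did not rise. Crx read 7.87, 8.68 and 9.93, against 7.04 to 7.50 on the E17.5 arrays and 7.26 to 7.38 on the P7 arrays. Gnat1 read 5.62, 5.86 and 5.81, against 5.84 to 6.78 at E17.5 and 5.80 to 6.26 at P7. The part of other eye tissue in the P3 values was not tested.

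**Figure D4:**
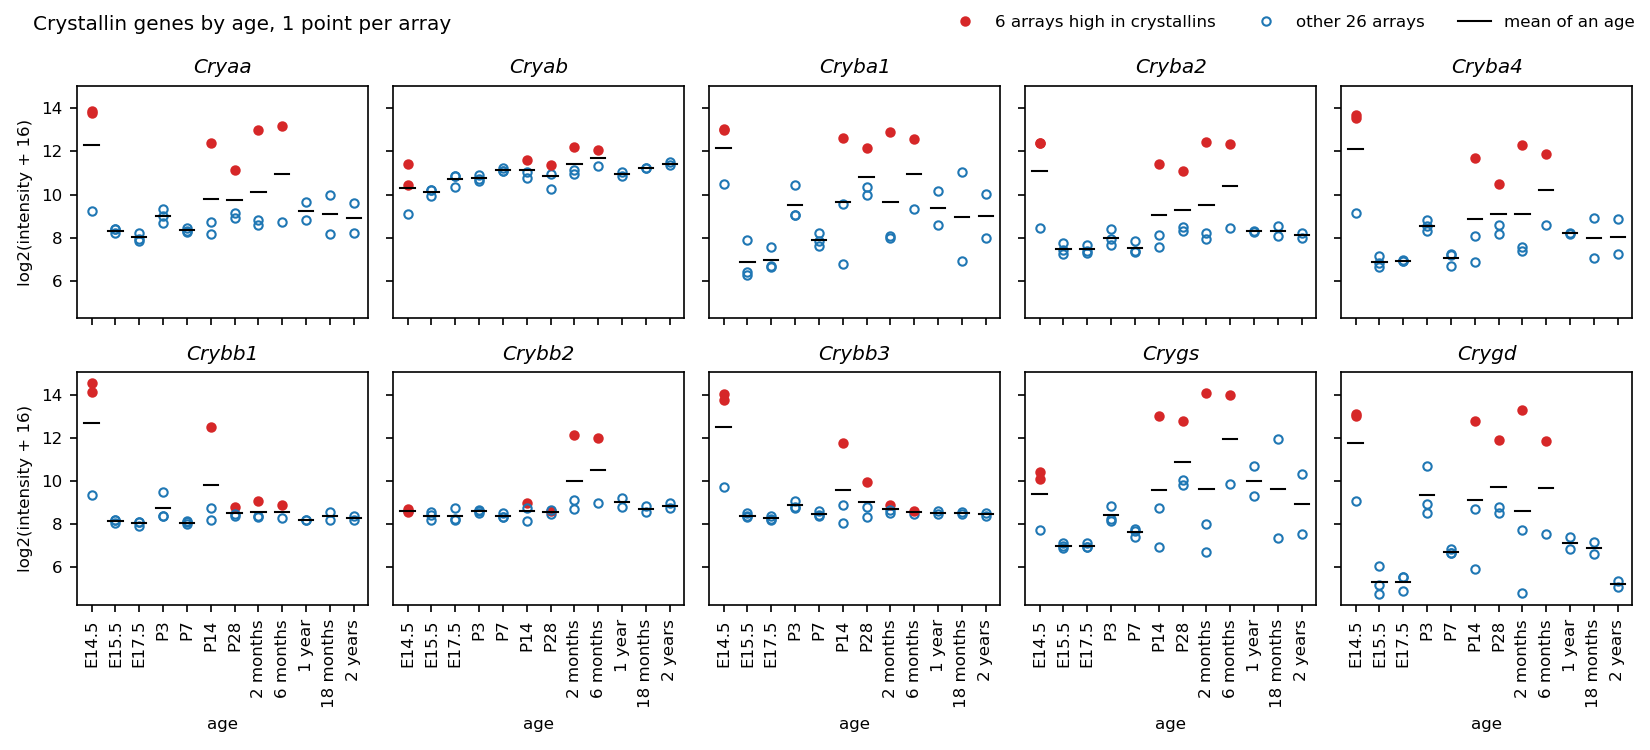
Log2(intensity + 16) of each crystallin (y axis) by age (x axis), with 1 point per array and a bar at the mean of an age; filled red points are the 6 arrays high in crystallins and open blue points the other 26. Cryab and Crybb2 keep narrow bands at most ages, with Cryab at 10.34 or above on every array from E17.5 on except P28 replicate 3 (10.26), while for Cryaa and Cryba2 the mean of an age with a red point lies where no array does.

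Of the other gamma crystallins, Crygb and Crygc were high on the same 6 arrays, while Cryga, Crygf and Crygn were high on some of them. The gamma crystallins are close copies of each other, so probes of one may read RNA of another. Crygb read 11.84 to 13.60 on the 6 high arrays and 5.70 to 10.38 on the other 26, and Crygc 12.02 to 13.41 and 6.39 to 10.14. Cryga read 13.89 and 14.04 on E14.5 replicates 2 and 3, 13.02 on P14 replicate 2 and 9.71 on P28 replicate 2. It read 11.30 on 2 months replicate 1 and 6.31 on 6 months replicate 2, against 5.70 to 9.96 on the other 26. Crygf read 11.35 and 11.03 on E14.5 replicates 2 and 3, 11.04 on P14 replicate 2 and 9.87 on P28 replicate 2. It read 10.34 on 2 months replicate 1 and 7.08 on 6 months replicate 2, against 7.30 to 9.25 on the other 26. Crygn, a member that links the beta and gamma families, read 12.69 and 12.47 on the same E14.5 arrays. It read 9.42 on P14 replicate 2, 7.92 on P28 replicate 2, 8.05 on 2 months replicate 1 and 7.88 on 6 months replicate 2. On the other 26 arrays Crygn read 7.07 to 8.19. The opposite order was seen in Lgsn (lengsin), a protein of mature lens fibres, with 6.53 and 6.96 at E14.5, 12.05 on 2 months replicate 1 and 11.58 on 6 months replicate 2. Of the family members named for an enzyme relation, Crym, Cryz and Cryl1, none had a high array above all of the other 26.

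The genes whose values most resembled the crystallin median over the 32 arrays were mostly lens genes. The 10 with the highest Pearson r were Crygc (0.93), Crygb (0.92), Grifin (0.89), Mip (0.80), Cryga (0.80), Crygf (0.79), Lim2 (0.78), Crygn (0.77), Spink13 (0.75) and Snrpd1 (0.69). These correlations are descriptions over arrays that share their ages and their tissue. For Cryab the closest were Bfsp2, a filament protein of lens fibres (0.78), Clca4a (0.72), Hbegf (0.72), Oasl2 (0.72) and Plaat3 (0.71).

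The spread between arrays of one age put most of the crystallins among the most variable genes on the array. The SD within ages was 2.14 for Crygd, 2.05 for Crygs, 1.74 for Cryba1, 1.63 for Cryaa and Cryba4, 1.50 for Cryba2, 1.21 for Crybb1, 1.02 for Crybb3, 0.79 for Crybb2 and 0.51 for Cryab, against a median of 0.20 over the 12998 genes tested. Only 1 gene had a larger SD than Crygd, and 504 had a larger one than Cryab. Ages accounted for 43.1% (Crygs) to 67.5% (Crybb3) of the sum of squares of a crystallin, against a median of 72.7% over all genes.

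The 6 high arrays were picked by the values of these genes, so leaving them out lowers the SD by construction. E14.5 and 6 months then had no replicates and added nothing to it. The SD without them was 0.21 for Cryab and Crybb3, 0.23 for Crybb2, 0.26 for Cryba2 and 0.28 for Crybb1. The all-gene median was 0.20, and these SDs lay at percentiles of 57.5 (Cryab) to 80.22 (Crybb1) of all genes. It stayed at 1.18 for Cryba1, 1.15 for Crygs and 0.94 for Crygd, and was 0.55 for Cryba4 and 0.50 for Cryaa. These 5 genes therefore still varied between arrays of one age outside the 6 arrays. Deviations from the age mean moved together most closely for Cryaa and Cryba4 (r = 0.98) and for Crybb1 and Crybb3 (0.97), and least for Crybb2 and Crybb3 (0.18), over 32 arrays and 45 pairs.

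**Figure D5:**
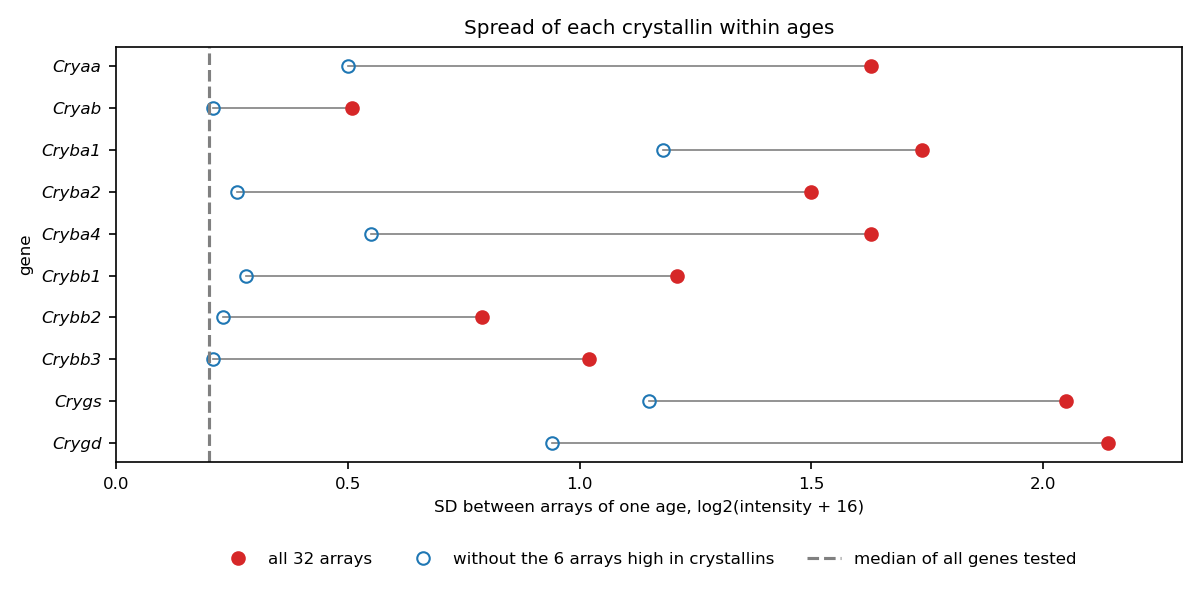
SD between arrays of one age in log2(intensity + 16) (x axis) for each crystallin (rows), over all 32 arrays (filled) and without the 6 arrays high in crystallins (open), with the median of all genes tested as a dashed line at 0.20. Cryab, Crybb3 and Crybb2 come down close to the line, while Cryba1, Crygs and Crygd stay well to its right. Leaving out the 6 arrays lowers the SD by construction.

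The ages were then compared in one limma model over the 32 arrays, with Benjamini-Hochberg adjustment over 12998 genes and a call at an adjusted p under 0.05 with a log2 difference of at least 1. Over the 12 ages 6 of the 10 crystallins were called, Cryab, Cryba1, Cryba4, Crybb1, Crybb3 and Crygd, against 40.6% of all genes tested. Differences without the 6 high arrays are given below as values alone, because those arrays were defined by the values of these same genes and leaving them out lowers the spread by construction. For Cryab the age means ran over 1.57 (adjusted p = 0.0373), with the lowest mean of 10.12 ± 0.14 at E15.5 (SD, n = 3) and the highest of 11.69 ± 0.54 at 6 months (SD, n = 2). That call was lost without any 1 of the E15.5, 18 months or 2 years arrays or without 6 months replicate 2. Without E14.5 replicate 2 the count over ages was 3, with Cryba1, Cryba4 and Crybb1 no longer called, and without E14.5 replicate 3 it was 4, with Cryba1 and Cryba4 no longer called. With the P28 to 2 years arrays alone it was 0, against 6.69% of genes. With the E14.5 to P14 arrays alone it was 7, against 19.1%.

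E15.5 followed E14.5 with lower values of 7 crystallins, against 3.10% of all genes called lower and 10.4% in either direction. Cryaa averaged 8.34 ± 0.12 at E15.5 and 12.30 ± 2.66 at E14.5 (SD, n = 3 each) and fell by 3.96 (SE 1.21, adjusted p = 0.0132). Crybb1 fell by 4.52 (SE 0.90, adjusted p = 4e-04), Crybb3 fell by 4.10 (SE 0.76, adjusted p = 0.000186) and Crygd fell by 6.41 (SE 1.60, adjusted p = 0.00295). Cryba1 fell by 5.29, Cryba2 fell by 3.60 and Cryba4 fell by 5.26. Each of these 7 genes read higher on all 3 E14.5 arrays than on any E15.5 array. The calls of Cryaa and Cryba2 were lost without E14.5 replicate 2 (adjusted p = 0.0726 and 0.0723) or replicate 3 (0.0715 and 0.0736).

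The members that did not pass were Cryab, with a difference of -0.21 (SE 0.39, adjusted p = 0.705), Crybb2, with -0.24 (adjusted p = 0.772), and Crygs, with -2.41 (adjusted p = 0.223). E14.5 replicates 2 and 3 are 2 of the 6 high arrays, and of the 7 lens genes tested outside the crystallins 3 fell at the same step: Mip, the water channel of lens fibres, fell by 1.77, Lim2 fell by 2.84 and Grifin fell by 1.27. Of 4 lens regulators tested, Prox1, which acts on crystallin genes in lens fibres, fell by 1.95 and the others were not called. Of 9 other crystallin family genes 5 fell, Cryga by the most with a difference of -5.83 (SE 1.26, adjusted p = 0.000839), and 1 rose. Without the 6 high arrays E14.5 was 1 array, and the differences were -3.62 for Cryba1, -2.26 for Cryba4, -1.20 for Crybb1, -1.33 for Crybb3, -3.74 for Crygd, -0.89 for Cryaa and -0.97 for Cryba2. The Cryab difference turned to 1.04 there, against the single E14.5 value of 9.08, the lowest Cryab value of the 32 arrays. It was also positive without E14.5 replicate 2 alone (0.35, adjusted p = 0.479).

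At the 10 later steps between neighbouring ages no crystallin was called, so that 7 of 110 comparisons of a crystallin at a step were calls, all at the first step, against 2.49% over all genes and steps. At an unadjusted p under 0.05 the later steps held 2 of 100, Crygd at P3 against E17.5 and Crybb2 at 2 months against P28, against 20.7% over all genes at these steps. At P3 against E17.5 Crygd differed by 4.03 (SE 1.60) with an adjusted p of 0.094.

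The adult cornea of 2 months differed from E14.5 in 4 crystallins, 1 higher and 3 lower, against 16.3% of all genes called. These ages also lie in different array sets, which cannot be told apart from age here. Cryab averaged 11.43 ± 0.66 at 2 months and 10.32 ± 1.18 at E14.5 (SD, n = 3 each) and was higher by 1.11 (SE 0.39, adjusted p = 0.0216). Crybb1 fell by 4.09 (SE 0.90, adjusted p = 0.000665), Crybb3 fell by 3.81 (SE 0.76, adjusted p = 0.00024) and Cryba4 fell by 3.04 (SE 1.21, adjusted p = 0.0435). Crybb2 differed by 1.36 (adjusted p = 0.0636). Its difference was 0.28 without 2 months replicate 1, and it was called without 2 months replicate 2 (1.79, adjusted p = 0.0289) or 3 (2.00, adjusted p = 0.0111) and without either 6 months array (1.36, adjusted p = 0.0244). The Cryba4 call was lost without E14.5 replicate 2 or 3 and without 2 months replicate 2 or 3 (adjusted p of 0.17 to 0.201). The Cryab call was lost without E14.5 replicate 1 (0.49, adjusted p = 0.253) and without 2 months replicate 1 (0.74, adjusted p = 0.154). Without 2 months replicate 1, 7 crystallins were called, all of them lower at 2 months, against 16.3% of all genes. E14.5 replicates 2 and 3 and 2 months replicate 1 are among the 6 high arrays. Without the 6 high arrays E14.5 replicate 1 was the only array of its age. The differences were then -1.01 for Crybb1, -1.14 for Crybb3, -1.65 for Cryba4 and 1.98 for Cryab.

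Other heat shock genes gave a setting for Cryab. Of 11 tested, 3 rose and 3 fell at 2 months against E14.5, and Hspb1, a small heat shock protein of many epithelia, rose by 3.34 (SE 0.25, adjusted p = 7.8e-11). Hspb2, the divergent neighbour of Cryab and a gene of muscle, differed by -0.25 (adjusted p = 0.519). Hspb2 read 10.03 and 9.79 on E17.5 replicates 1 and 3, against 8.68 on replicate 2, and skeletal muscle genes lay 3.83 and 3.52 above their overall median on those 2 arrays and 0.19 above it on replicate 2. Cryab read 10.87 and 10.88 there and 10.34 on replicate 2, and the part of muscle in it was not tested. Without those 2 arrays the Cryab call over the 12 ages held (adjusted p = 0.0427), and 5 crystallins were called against 45.3% of genes.

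Ageing left no crystallin past the threshold. When arrays of 1 year, 18 months and 2 years were averaged and set against the average of 2 and 6 months, limma called 0 of 10 crystallins, against 0.677% of all genes called. At an unadjusted p under 0.05 there were 2 of 10, against 19.0% of all genes. Cryab differed by -0.36 (SE 0.29, adjusted p = 0.565) and Crygd by -2.73 (SE 1.20, adjusted p = 0.212). Crybb2 came nearest, at -1.38 (SE 0.44, adjusted p = 0.0759), with 8.58 to 9.23 on the 6 arrays of 1 year and older against 12.13, 9.11, 8.70, 9.00 and 12.01 on the 5 arrays of 2 and 6 months. Crybb2 was called without 2 months replicate 3 (-1.70, adjusted p = 0.0315) or without 6 months replicate 1 (-2.13, adjusted p = 0.00809). Without the 6 arrays high in crystallins the Crygd difference was -0.48, and those of Cryaa and Crygs turned to 0.36 and 0.91. The Crybb2 difference was then -0.09, so that its size rested on 2 months replicate 1 and 6 months replicate 2.

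The stroma of P7 read higher than the epithelium of P28 in all 10 crystallins. These were 1 array each, of different ages and taken in different ways, so the difference has no replicate check and no test. Crygd had an intensity of 9213 in stroma and 157 in epithelium, a ratio of 58.7. Cryaa had 6898 and 291 (23.7), Crybb1 5585 and 221 (25.2), Crybb2 5161 and 369 (14.0), and Cryab 5931 and 990 (5.99). All 10 ratios were at least 4, as were 1.43% of the 11109 genes that exceeded the median of at least 1 of these arrays.

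The stroma array also lay far above whole cornea of its own age. Crygs read 13.27 on the stroma array against 7.42 to 7.76 on the 3 whole-cornea arrays of P7, and Crybb1 12.45 against 7.99 to 8.13. The whole cornea contains the stroma. The epithelium array read Cryab at 9.97, below the 10.26 to 11.37 of whole cornea at P28, and Crybb1 at 7.89 against 8.36 to 8.80. On the stroma array, unlike any whole-cornea array, Crybb1, Crybb2 and Crybb3 were all high together, at 12.45, 12.34 and 12.60.

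Genes of other tissues were also higher on the stroma array. Lens genes other than crystallins lay 2.18 and skeletal muscle genes 2.72 above their overall whole-cornea medians there, against 1.09 and 0.42 on the epithelium array. Lim2 read 10.28 in stroma and 7.20 in epithelium. Other listed lens genes lay closer in the 2 layers. Mip read 10.39 in stroma and 9.18 in epithelium, and Dnase2b 7.72 and 8.02. Both layer arrays had a higher floor than the whole-cornea arrays, with lowest intensities of 42.6 in stroma and 41.8 in epithelium, so that levels set across the 2 kinds of array carry that difference. The part of lens and muscle in the stroma values was not tested.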

How the data were processed

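Biotin-labelled cDNA from mouse cornea, amplified with the NuGEN Ovation system per the labels' protocols, was read on Affymetrix gene arrays. The values deposited by the authors are linear intensities of 35557 probe sets on 34 arrays (2 values missing), summarized by PLIER in Affymetrix Expression Console 1.1, as the submitters' processing notes state. The platform annotation gave 1 symbol to 21789 probe sets, several to 1621 and none to 12147.

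Probe sets with 1 symbol that lay above the array median on at least 2 of 32 whole-cornea arrays were kept (14329). Each gene was represented by its brightest probe set on average (12998 genes). Values were put on a log2(intensity + 16) scale with no further normalization. One mean per age was fitted with lmFit and eBayes of limma 3.58.1 (R 4.3.3; residual degrees of freedom 20, prior 4.1), two-sided, with Benjamini-Hochberg adjustment over all genes. The step was tested on simulated data. The 2 layer arrays stayed out of every fit. The genes named are the 10 members, fixed lists of lens, retina, muscle, corneal and heat shock genes, and those most correlated with the members. The members and lists were chosen with earlier results of these data known. The 6 arrays high in crystallins were defined after seeing the data, by a median at least 2 above its overall median. Promoter sequences came from RefSeq (GRCm38.p6). The files name no genome build.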

Additional observations from a re-analysis of the deposited data

How the results depend on the processing

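The counts of crystallins called were recomputed under other filters, offsets, normalization, probe set choice and moderation, with each array left out in turn, and with 2 alternatives chosen after seeing the data, without the 6 arrays high in crystallins and without the 2 arrays high in muscle genes. None of the 11 differences called at E15.5 or 2 months against E14.5 changed direction. Differences that were not called did, among them Cryab at E15.5 against E14.5 (-0.21, against 1.04 without the 6 high arrays) and Cryaa in ageing (-1.47, against 0.36). With each array left out in turn the count was 3 to 9 over the 12 ages, 5 to 7 at E15.5 against E14.5, 3 to 7 at 2 months against E14.5, 0 to 1 in ageing and 5 to 8 over the 11 steps. The lowest count over ages came without E14.5 replicate 2. Over the P28 to 2 years arrays alone the count was 0, against 6.69% of genes, with fewer arrays in the fit. With 2 months replicates 2 and 3 averaged, which carry the identifiers 1B and 1A, ageing had 1 call, against 0.577% of all genes. This call was Crybb2 (adjusted p = 0.046), and the cause was not tested. The Cryba4 call at 2 months against E14.5 was lost with no filter (adjusted p = 0.0504) and with trend and robust moderation (0.0612), and the Cryab difference fell short of 1 under quantile normalization (0.94). Same-numbered arrays of different ages did not deviate together (median r = -0.01, from -0.43 to 0.40). With the replicate block the counts were 5 over ages, 7, 4, 0 and 7 in the order above. The alternative without arrays rich in other lens genes could not be run, since none reached 2 above the overall median (largest 1.14). The 14 arrays of P28 and later differed from the 18 earlier ones in 8 unnamed probe sets, at 12.8 or less against 1501 or more. Array set and age thus cannot be told apart wherever an age up to P14 is set against one of P28 or later.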
